A study of Drosophila melanogaster with 3 samples.

Results

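Distal intergenic peaks of tagged eyegone (eyg) were the regions of the deposited optimal list whose summit lay outside the span of every protein-coding gene and more than 1.0 kb from the nearest protein-coding transcription start site (TSS). They numbered 255 of 2537 optimal peaks, or 10.1%. The choice used position only, on the genome build dm6 of Drosophila melanogaster, with Ensembl gene models. The libraries came from whole embryos of both sexes, collected over 0 to 24 h, of a transgenic line that stably expresses eyg with green fluorescent protein (GFP) at its C terminus. Sonicated chromatin, of 200 to 800 bp, was immunoprecipitated with an antibody against GFP and sequenced (ChIP-seq). There were 3 biological replicates of this 1 group and no second condition, so conditions could not be compared. Whole embryos mix all cell types and many stages, so a peak cannot be assigned to a tissue, and the antibody recognises the tag, not native eyg. Which sequences drive the transgene is not given in the sources used here, and the control library was not analysed here.

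Eyegone is a Pax-family transcription factor that has a homeodomain and lacks a part of the paired domain, known for its part in the growth of the eye primordium and in the salivary ducts. Sites far from promoters, in the DNA between genes, often act as enhancers, which are bound by transcription factors and can regulate a gene over a distance. The nearest gene to such a site is a label for its position and need not be its target.

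The 6 strongest distal intergenic peaks off the right arm of the second chromosome are shown first because they carry the highest signal, each as 121 bases centred on the summit, from the RefSeq copy of Release 6 (dm6), plus strand. Capitals mark a match, on either strand, to one of 14 textbook motifs, and a sequence without capitals held none of them.
Peak nearest hll, chr2L:14024020-14024140: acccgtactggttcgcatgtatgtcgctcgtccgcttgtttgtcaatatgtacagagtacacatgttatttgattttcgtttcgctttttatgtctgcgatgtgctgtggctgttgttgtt
Peak nearest CG4004, chrX:12751344-12751464: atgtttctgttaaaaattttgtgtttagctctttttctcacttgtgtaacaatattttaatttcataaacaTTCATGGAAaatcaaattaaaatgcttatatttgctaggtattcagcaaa
Peak nearest tara, chr3R:16222435-16222555: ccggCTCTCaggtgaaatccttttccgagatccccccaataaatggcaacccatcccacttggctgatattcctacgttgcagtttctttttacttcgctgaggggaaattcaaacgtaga
Second peak nearest CG4004, chrX:12752290-12752410: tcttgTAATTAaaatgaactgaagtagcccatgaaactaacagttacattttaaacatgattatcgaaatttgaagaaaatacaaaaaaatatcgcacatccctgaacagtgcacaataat
Peak nearest eEF1gamma, chr3R:29214405-29214525: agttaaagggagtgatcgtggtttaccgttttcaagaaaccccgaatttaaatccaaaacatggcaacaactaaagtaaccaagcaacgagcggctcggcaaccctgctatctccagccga
Second peak nearest tara, chr3R:16224430-16224550: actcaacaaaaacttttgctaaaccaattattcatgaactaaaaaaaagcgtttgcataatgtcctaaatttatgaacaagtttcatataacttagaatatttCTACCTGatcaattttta

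The first of the sequences nearest CG4004 held the Stat92E core TTCNNNGAA and the second the homeodomain core TAATTA. The first nearest tara held the GAGA factor word GAGAG, read on the minus strand, and the second the Zelda site CAGGTAG, also on the minus strand. No textbook motif was common to the 6.

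A second set is shown because its members share a short word that was found in the distal intergenic peaks themselves, after the data had been examined. These are the 4 strongest members with the word TACACTG, off the same arm, each as 36 bases on the strand that reads the word, with the word in capitals.
Peak nearest Cpr76Ba, chr3L:19516797-19516832, plus strand: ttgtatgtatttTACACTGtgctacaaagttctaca
Peak nearest CG3149, chrX:5696573-5696608, minus strand: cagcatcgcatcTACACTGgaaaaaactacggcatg
Peak nearest noc, chr2L:14502690-14502725, plus strand: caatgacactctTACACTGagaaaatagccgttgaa
Peak nearest slp2, chr2L:3832569-3832604, minus strand: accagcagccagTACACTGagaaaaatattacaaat

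The strongest distal intergenic peak lay at chr2L:14023931-14024253, 2921 bp upstream of the nearest protein-coding TSS, that of hll, and 19 bp from the TSS of the long non-coding RNA gene lncRNA:CR31840. Its signal was 291, 443 and 425 in replicates 1, 2 and 3, and 1141 in the pool of the 3. The signal is the authors' own value per region, its scale is not stated, and pooled and replicate values are set side by side but not compared in size. This peak ranked 13 of 2537 by pooled signal and was among the 17 highest calls of each replicate.

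Close behind came a pair of peaks on the 3′ side of CG4004, within the span of lncRNA:Vinr. The stronger, at chrX:12751172-12751591, had signals of 326, 333 and 477 in replicates 1, 2 and 3 (pool 1129). The weaker, at chrX:12752216-12752506, had 232, 247 and 288 (pool 773). The weaker was below the stronger in all 3 libraries.

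Another pair lay upstream of tara (taranis), which encodes a nuclear protein linked to the trithorax group and the cell cycle. The peak 3156 bp from its TSS, at chr3R:16222345-16222647, had signals of 226, 353 and 381 in replicates 1, 2 and 3 (pool 959). The peak 1161 bp from it, at chr3R:16224379-16224605, had 116, 246 and 245 (pool 629.6). Replicate 1 was the lowest of the libraries at both, as it was at most strong peaks.

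The peak nearest eEF1gamma, a translation elongation factor gene, lay 5707 bp upstream at chr3R:29214278-29214593 and 97 bp from the TSS of lncRNA:CR31044. Its signals were 190.2, 275 and 303 in replicates 1, 2 and 3 (pool 772). The peak 11944 bp from CG13323 had 216, 346 and 362 (pool 921), and the peak 3335 bp from CycB, the cyclin B gene of mitosis, had 161, 228 and 291 (pool 675). In each of these 3 peaks the order of the libraries was the same.

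The next pair lay in front of chinmo, which encodes a BTB zinc-finger factor that sets the temporal identity of neurons. At chr2L:1632712-1632936, 18399 bp upstream, the signals were 148, 204 and 196 in replicates 1, 2 and 3 (pool 551). At chr2L:1638755-1638956, 12437 bp upstream, they were 161, 209.9 and 37.8 (pool 613). Replicate 3 stood apart at this second peak, where a stronger region of that library, with a signal of 255.8, ended 27 bp before the pooled summit and so did not hold it.

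The remaining peaks among the 20 strongest had pooled signals from 518 down to 362. Their nearest genes were stck, which encodes the integrin-adhesion protein PINCH, CG43245, lgs, a Wnt pathway cofactor gene, Cpr76Ba, a cuticle protein gene, noc, which encodes a zinc-finger protein of ocelli and trachea, CG43131, slbo, the C/EBP gene needed for border cell migration, Alp6, an alkaline phosphatase gene, and CG34342. Both slbo peaks, at 386 and 365, lay within the span of lncRNA:CR44810. Of all 20, the second chinmo peak was the only one not among the 2537 highest calls of every replicate. That counts only regions that hold the summit, and so leaves out the stronger region of replicate 3 beside it.

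**Figure D1:**
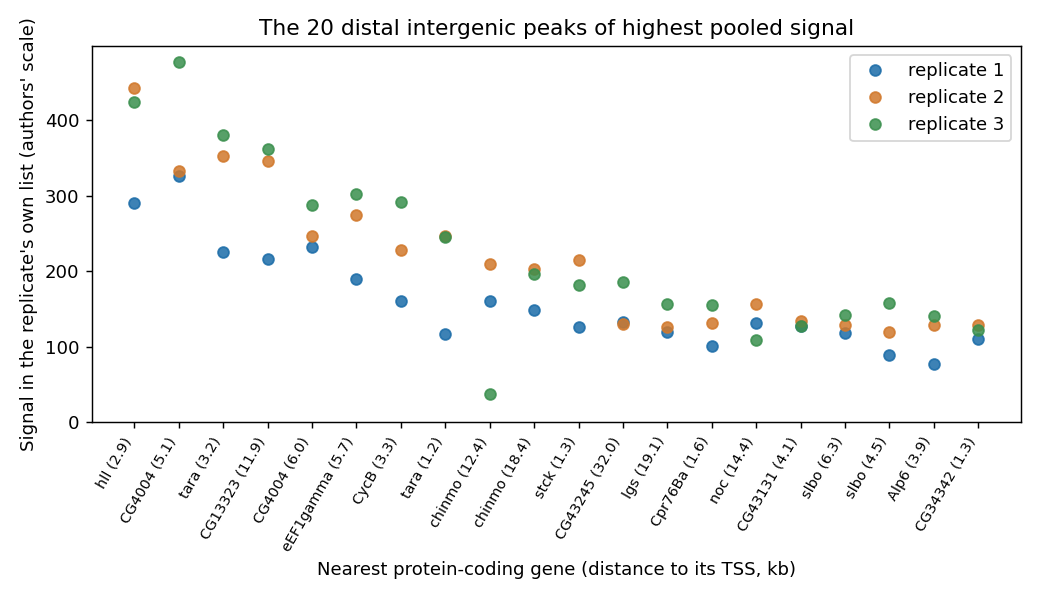
Signal of the 20 strongest distal intergenic peaks in each of the 3 replicates (points), on the authors' scale, ordered by pooled signal; labels give the nearest protein-coding gene and the distance to its TSS in kb. Replicate 3 is the lowest by far at the chinmo peak 12.4 kb upstream, at 37.8 beside 161 and 209.9. A stronger region of replicate 3 there, at 255.8, does not hold the pooled summit and is not drawn. Replicate 1 is well below the others at the second tara peak, at 116 beside 246 and 245.

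The signal of distal intergenic peaks lay close to that of the rest of the optimal list. Their pooled signal had a median of 153 (quartiles 123 and 226, range 108.4 to 1141), against 157 for the 2282 other optimal peaks, and 11 of the 100 strongest optimal peaks were distal intergenic. The median signal was 45.4, 56.2 and 59.3 in replicates 1, 2 and 3, against 45.3, 57.1 and 61.8 in the others. The difference in median log2 signal was 0.00, -0.02 and -0.06, a mean of -0.03 ± 0.03 (SD, n = 3 replicates). It was below 0 in 2 of 3 replicates and within the spread between them (exact two-sided sign-flip permutation test over the replicates, p = 0.5). With 3 replicates this exact test cannot go below p = 0.25, and it measures the spread between these libraries only.

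Against the 675 peaks that were also over 1.0 kb from a TSS but within a gene, the median log2 signal was higher by 0.09, 0.02 and 0.03 in replicates 1, 2 and 3. The mean was 0.05 ± 0.04 (SD, n = 3, exact permutation p = 0.25). Against the 595 promoter-flanking peaks, over 200 and up to 1000 bp from a TSS, it was -0.06, -0.10 and -0.16, a mean of -0.10 ± 0.05 (SD, n = 3, exact permutation p = 0.25). Against the 1012 promoter peaks, within 200 bp, the mean was -0.03 ± 0.04 (SD, n = 3, exact permutation p = 0.25). The 3 replicates had one sign in each of these 3 comparisons, which is the most the design can show.

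Most distal intergenic peaks were found again near the top of each library. Among the 2537 highest calls of replicates 1, 2 and 3 were 76.9%, 78.4% and 82.7% of them, against 77.0%, 82.5% and 83.5% of the other optimal peaks. The mean was 79.3% ± 3.05 against 81.0% ± 3.52 (SD, n = 3), and the difference was -1.66 ± 2.12 percentage points, lower in 3 of 3 replicates (exact permutation p = 0.25). In all 3 replicates at once, 142 peaks (55.7%) were among these calls, where the share over the whole optimal list was 57.9%. A further 69 were there in 2 replicates, 43 in 1 and 1 in none. Since the optimal list was made from the same libraries, this recovery is not independent.

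Spearman's rank correlation of signal between libraries across these peaks was 0.67 for replicates 1 and 2, 0.66 for 1 and 3, and 0.69 for 2 and 3, against 0.65, 0.65 and 0.68 across the others. It is a description over 252 to 254 regions, which share their libraries. After each library was divided by its median over optimal peaks, the coefficient of variation over the 3 replicates had a median of 18.1% (range 1.18% to 75.7%). The most variable was a peak nearest CG3149 at chrX:5696585-5697008, with 82.6, 28.9 and 36.3 in replicates 1, 2 and 3. In replicate 1 it shared its region with a stronger peak beside it, so the value there is not its own. No region of replicate 1 held the summit of 1 peak, nearest CG15452, and none of replicate 3 held those of 2 peaks, nearest Ids and chinmo.

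Narrow peaks had the higher signal. The full width of 424 bp was given to 232 peaks, with a median pooled signal of 144, and the 23 narrower ones, down to 106 bp, had a median of 402. The difference in median log2 signal was 1.48, 1.55 and 1.48 in replicates 1, 2 and 3 (mean 1.5 ± 0.04, SD, n = 3, exact permutation p = 0.25, higher in 3 of 3). Narrow peaks were 9.02% of the distal intergenic and 8.76% of the other optimal peaks.

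The bases that satisfy the position rule add up to 37.9 Mb, 28.3% of the 134 Mb of the 6 arms, so the share of 10.1% of peaks was lower than the share of bases. It changed with rank. It was 11.0% among the 100 strongest pooled regions (95% Wilson interval 6.25% to 18.6%, counting error only) and 12.3% among ranks 2001 to 2537 (9.78% to 15.3%). Below the optimal list it was 12.5% at ranks 2538 to 5000, higher in each range that followed, and 19.9% at ranks 20001 to 23721 (18.6% to 21.2%). Over all 21184 candidates below the list it was 16.4%. Candidates below the list had a lower signal by construction and did not reach the share of bases in any range of ranks.

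**Figure D2:**
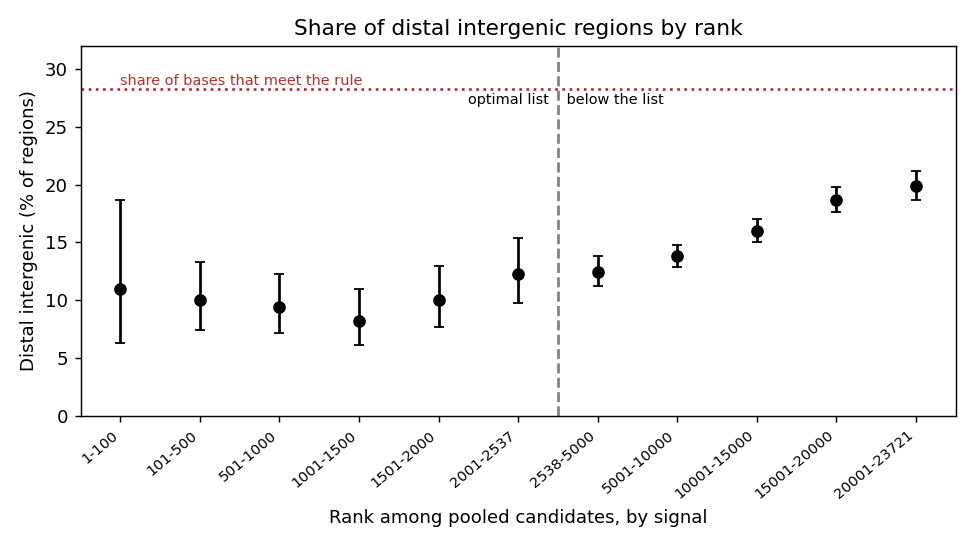
Share of regions that are distal intergenic (%) by rank of pooled signal, with 95% Wilson intervals; the dashed line marks the end of the optimal list and the dotted line the 28.3% of bases that satisfy the rule. The share lies between 8.20% and 12.3% inside the list and reaches 19.9% among the weakest candidates.

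The arms differed in density. There were 58 peaks on 2L, 38 on 2R, 72 on 3L, 54 on 3R, 3 on chromosome 4 and 30 on X. Per Mb of eligible bases this was 8.27, 5.07, 7.76, 6.86, 11.0 and 5.05, against 6.73 over all arms. Arms 2R and X were the lowest, and the value for chromosome 4 rests on 3 peaks.

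The nearest protein-coding TSS was at a median of 4489 bp. It lay over 1 to 2 kb away for 56 peaks, over 2 to 5 kb for 83, over 5 to 10 kb for 48, over 10 to 20 kb for 53 and farther for 15. The median pooled signal of these 5 groups ran from 147 to 159, with no steady fall with distance. The farthest peak lay 50046 bp from CG12362 at chr3L:10362560-10362983, with signals of 48.1, 41.0 and 67.4 in replicates 1, 2 and 3 (pool 160.1), and within the span of lncRNA:CR46006. It was followed by peaks 39727 bp from CG6414 (pool 119), 36593 and 33482 bp from CG43245 (114 and 109.3) and 32929 bp from corto, a chromatin factor gene (191). At the threshold of the rule, the closest peaks inside it lay 1002 bp from CG4733 (pool 118) and 1003 bp from CG1142 (134), and the closest outside it 983 bp from CG9498 (207) and 985 bp from RabGGTa (126).

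Peaks on the 5′ side of the nearest gene numbered 150 and those on the 3′ side 105. The share of eligible bases on each side was not counted, so these counts do not show a preference for a side. Between 2 genes that point away from each other lay 87 peaks (34.1%), where such divergent gaps hold 22.7% of the eligible bases. Tandem gaps held 109 peaks (42.7% against 49.5% of bases) and convergent gaps 59 (23.1% against 22.7%). No peak lay beyond the last gene of an arm, which has 5.0% of the eligible bases.

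Non-coding genes were close to many of these peaks. Of the 255 summits, 44 (17.3%, 95% Wilson interval 13.1% to 22.4%) lay within the span of a non-coding gene, where such spans cover 7.11% of the eligible bases. A span or a non-coding TSS within 1.0 kb was found for 81 (31.8%, 26.4% to 37.7%), against 11.2% of bases. Of the spans, 42 were of long non-coding RNAs and 2 of small nuclear RNAs, and 20 summits were within 200 bp of a non-coding TSS. The median log2 signal of peaks in a span was above that of the rest by 0.10, 0.01 and 0.16 in replicates 1, 2 and 3 (mean 0.09 ± 0.07, SD, n = 3, exact permutation p = 0.25), while the pooled medians were 152 in a span and 153 outside. For the wider set of 81 the difference was -0.07, 0.01 and 0.04 (mean -0.01 ± 0.06, SD, n = 3, exact permutation p = 1). The 5 strongest in a span were the peak nearest hll, both nearest CG4004 and both nearest slbo. The rule counted protein-coding genes only, so it kept peaks close to the TSS of a non-coding gene.

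Repeats were less frequent at the summits than in the eligible DNA. The summit base was repeat-masked in 40 peaks (15.7%, 95% Wilson interval 11.7% to 20.7%), against 26.4% of bases. Within 100 bp of the summit, at least 50% of the bases were masked in 5 peaks (1.96%), against 15.8% of windows of that length over the eligible genome. No summit lay in an annotated transposon, where 10.9% of the eligible bases lie. Reads from repeats map ambiguously, and its part in this difference was not tested. The low share was not particular to distal intergenic peaks. The summit base was masked in 15.8% of promoter, 19.5% of promoter-flanking and 18.7% of distal peaks within genes. Of all 2537 optimal summits, 4 lay in a transposon.

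**Figure D3:**
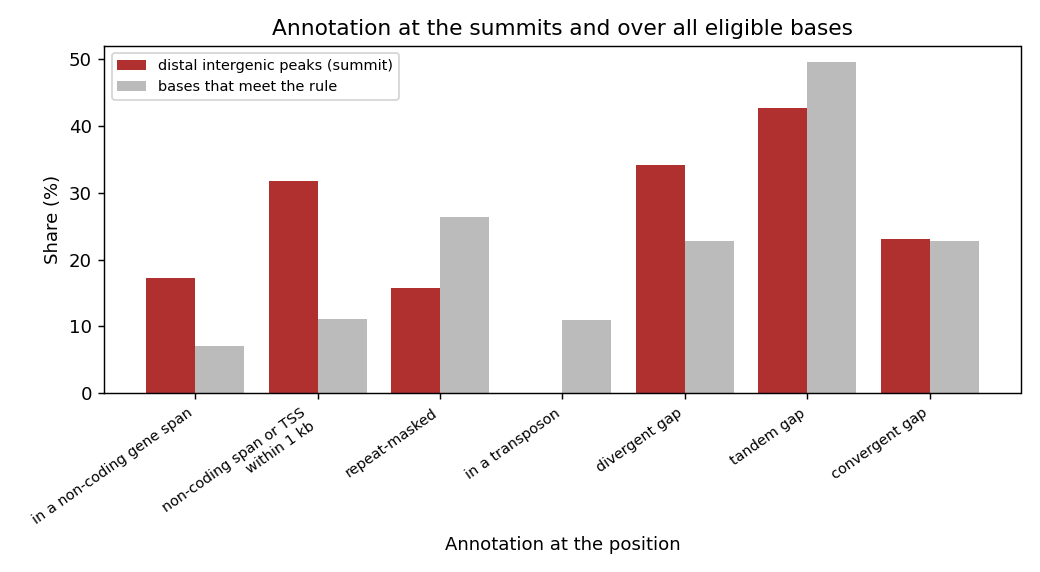
Share of distal intergenic summits (red) and of all bases that satisfy the rule (grey) in each annotation, in percent; gaps at the end of an arm, with no peak, are left out. Summits lie above the bases for non-coding spans (17.3% against 7.11%) and divergent gaps (34.1% against 22.7%), and below them for repeat-masked DNA (15.7% against 26.4%) and transposons (0% against 10.9%).

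Many of the peaks shared a gap between genes. The 255 peaks lay in 180 gaps of the 4308 that hold an eligible base (4.18%), and 111 peaks (43.5%) were in the 36 gaps with at least 2. Another optimal summit lay within 2 kb of 29.8% of the distal intergenic peaks and of 21.8% of the others. By class the share was 29.4% in promoter-flanking peaks, 23.9% in distal peaks within genes and 15.9% in promoter peaks. Such neighbours were thus about as frequent at promoter-flanking peaks. Overlapping peaks were counted separately in all of these shares. The gap around a peak had a median length of 18.4 kb, each gap counted once per peak. Over all eligible gaps, each counted once, the median was 3.07 kb. These medians are weighted differently, and a longer gap has more room for a peak and for several.

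The gap between RFeSP, which encodes a subunit of respiratory complex III, and chinmo held 9 peaks, more than any other. The genes point away from each other over 37.1 kb, and the summits covered 25318 bp of it. The 9 lay from 1026 to 26344 bp upstream of the chinmo TSS; 7 had chinmo as the nearest gene and the 2 farthest from it had RFeSP. Their pooled signals ran from 115.2 to 613. The peak 2460 bp upstream had 100.3, 145 and 95.5 in replicates 1, 2 and 3. The peak 16963 bp upstream had 65.8, 65.8 and 81.1, and that at 22900 bp had 44.7, 59.0 and 57.9. The peaks at 7933 and 7729 bp, 204 bp apart, fell in the same regions in all 3 replicates (65.8, 107.2 and 125), so their separate signals are known from the pool alone (296 and 153). The strongest peaks of the gap were thus those 12437 and 18399 bp upstream, with weaker ones on both sides.

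**Figure D4:**
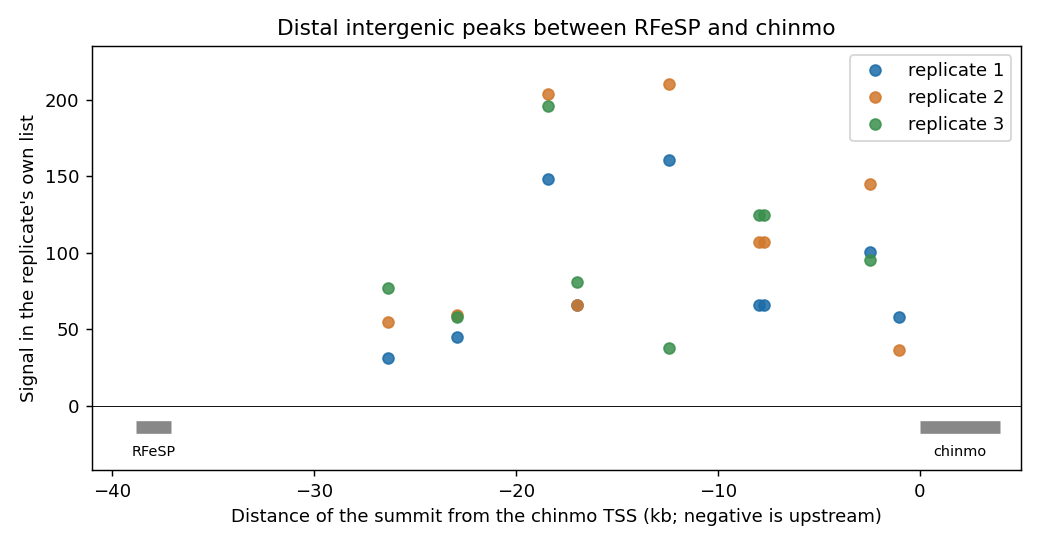
Signal of the 9 distal intergenic peaks between RFeSP and chinmo in each replicate (points), by distance of the summit from the chinmo TSS in kb, with the genes as grey bars (chinmo drawn in part). The peaks 12437 and 18399 bp upstream are the highest; at 12437 bp replicate 3 is at 37.8, and its stronger region of 255.8 does not hold the pooled summit, and the peak at 1026 bp has no value in replicate 3.

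Further groups were smaller. The gaps of CG44362 with CG7560 and of plh with corto held 5 each. There were 4 each between mtSSB and tara, NijA and CG43245, CG6168 and CG6163, and Ids and sty, the gene of the receptor tyrosine kinase antagonist sprouty. The 4 between mtSSB and tara were the closest together, within 2675 bp, and ran from 109.7 to 959. Between Ids and sty, overlapping peaks with summits 275 bp apart shared a region in replicate 2.

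There were 13 gaps with 3 peaks. They were flanked by NimC3 and hll, CG4004 and Paics, noc and CG33648, COX7AL2 and CG31668, CG15615 and CG5550, CG13896 and hng3, hng3 and CG13898, CG9932 and Ttc30, CG4218 and CG3473, Alp13 and Fmr1, dnc and Myc, CG42808 and CG6191, and lola and psq. Several of these genes encode regulators, among them Fmr1, an RNA-binding protein of synapses, Myc, the growth-promoting bHLH factor, and the BTB factors lola and psq. The highest signals in these gaps ran from 148.5 between lola and psq to 1141 between NimC3 and hll. Some of the peaks counted overlap each other. Summits 200 bp apart between CG13896 and hng3 fell in the same regions in every replicate, as did those 216 bp apart between CG15615 and CG5550.

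Of 13945 protein-coding genes, 192 (1.38%) were the nearest to a distal intergenic peak. Homeobox genes were so for 4 of 65. The strongest was zfh2, a zinc-finger homeodomain gene, with a peak 3923 bp upstream that had signals of 84.5, 136 and 107 in replicates 1, 2 and 3 (pool 327). The others were ems, a head gap gene (pool 194), oc, the orthodenticle gene of the head and ocelli (118), and tup, a LIM-homeodomain gene (113). The share of 6.15% stands beside 1.38% for all genes and is a description of few genes. For optimal peaks of any class, 8 of the 65 homeobox genes (12.3%) were nearest, beside 13.9% of all genes.

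Among 45 bHLH genes 2 were nearest, Myc and hry, the pair-rule gene hairy. All 3 peaks between dnc and Myc had Myc as the nearest gene, 9259 to 15341 bp upstream, and the strongest had 50.1, 66.5 and 67.7 in replicates 1, 2 and 3 (pool 181). The peak near hry had 21, 60.5 and 40 (pool 118). After division by the median of each library, the coefficient of variation was 3.29% at this strongest Myc peak and 42.2% at the hry peak. At the other Myc peaks it was 16.6% and 20.4%, near the median of 18.1% over distal intergenic peaks.

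Among 37 genes of signalling ligands only upd1, a ligand of the JAK/STAT pathway, was nearest (pool 158, 13994 bp). Among 75 genes of neural adhesion and recognition it was DIP-delta, an immunoglobulin-family receptor gene (182), and robo2, an axon guidance receptor gene (176). None of 25 nuclear receptor and ecdysone response genes was nearest, nor any of 88 genes of cytoplasmic ribosomal proteins, counts that are near the share of 1.38% over all genes. Of the ribosomal genes, 57 (64.8%) were nearest to an optimal peak of some kind, against 13.9% of all protein-coding genes. The same share was 40% for nuclear receptor and ecdysone response genes, 29.7% for ligand genes and 13.3% for neural adhesion genes. It was 17.8% for bHLH genes.

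Of 10 Pax genes and 15 retinal determination genes, eyg was the 1 gene in each list that was nearest to a distal intergenic peak. These shares, 10% and 6.67% beside 1.38% for all genes, rest on 1 gene. Gaps with such a peak were flanked by 3 of the Pax (30%) and 5 of the retinal determination genes (33.3%), beside 2.44% of all genes. These too are few genes, and eyg and its paralog toe flank the same gap, with 1 peak. The flanking share was 12.3% for homeobox, 8.89% for bHLH, 5.41% for ligand and 5.33% for neural adhesion genes. It was 1.14% for ribosomal protein genes and 0% for nuclear receptor and ecdysone response genes. For optimal peaks of any class, 30% of the Pax and 20% of the retinal determination genes were nearest, beside 13.9% of all genes. The peak nearest eyg lay at chr3L:12457273-12457696, 10536 bp from the eyg TSS on the 3′ side of the gene. It was 24817 bp from the TSS of toe, the paralog of eyg. Its signals were 46.5, 41.6 and 45.8 in replicates 1, 2 and 3 (pool 139). It was thus below the median distal intergenic peak in replicates 2 and 3 and just above it in replicate 1.

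Base composition dipped at the summits. The GC content within 100 bp of the summit had a median of 37.8%, and that of flanks 500 bp away 41.5%. The median difference per peak was -3.16 percentage points, against -4.68 in the other optimal peaks and -3.18 in distal peaks within genes. Windows of that length over the eligible genome had a median of 41.3%.

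Textbook motifs within 100 bp of the summit, searched on both strands, were set beside the 187338 eligible genome windows of the same length. These windows were not matched to the summits in GC content (median 41.3% against 37.8%) or in repeats. How far that moves the share of a word was not tested. The core of homeodomain sites, TAATTA, was found at 32 of 255 summits (12.5%, 95% Wilson interval 9.03% to 17.2%), in 11.8% of flanks and in 14% of windows. The K50 homeodomain word TAATCC was at 3.92% of summits and in 6.53% of windows. Neither homeodomain word was more frequent at distal intergenic summits than in the genome windows.

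GAGAG, the GAGA factor word, was at 28.2% of summits (26.8% of distal peaks within genes, 22% of promoter peaks, 20.9% of windows). The GATA word TGATAA was at 18% (18.4%, 13.4% and 12.2%) and the TATA box word TATAAA at 28.2% (28.1%, 27.9% and 23.1%). For these 3 the distal peaks between and within genes gave nearly the same share, and both lay above the windows. For TATAAA the Wilson interval at distal intergenic summits, 23.07% to 34.05%, still included the 23.13% of windows. Flanks of the distal intergenic peaks lay between summits and windows, at 23.9% for GAGAG, 14.5% for TGATAA and 25.5% for TATAAA. Promoter-flanking peaks had 28.7%, 19.3% and 29.9%, so these shares were not particular to distal peaks.

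Some words were far less frequent at distal intergenic summits than at promoter summits. TATCGATA, the DNA replication-related element, was at 1.18% of distal intergenic summits and 9.88% of promoter summits (0.428% of windows). The M1BP site GGTCACACT was at 0.392% and 4.64% (0.0955% of windows), and the E box CAGCTG at 4.31% and 16.0% (6.92% of windows). Of the 14 motifs, these 3 had the highest ratio of the promoter share to the distal intergenic share.

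The other textbook words were close to the windows or rested on few peaks. The Zelda site CAGGTAG was at 1.57% of summits (0.886% of windows), the AP-1 site TGACTCA at 1.18% (1.47%) and the Stat92E core TTCNNNGAA at 3.92% (6.09%). The repeats CACACACA and GAGAGAGA, which holds GAGAG, were at 5.10% (4.05%) and 1.18% (0.928%), and a run of 10 A or T at 3.14% (5.03%).

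A word of another kind came from a scan of the 597 words of 8 letters that at least 8 distal intergenic summits held. Among the first 10 by their ratio to the genome windows were ACACTGAG, CACTGAGA and TACACTGA, which overlap one another. CACTGAGA was at 14 summits (5.49%, against 0.685% of windows) and TACACTG at 24 (9.41% against 1.91%). One or the other was at 32 (12.5%, 95% Wilson interval 9.03% to 17.2%), in 2.35% of flanks and in 2.49% of windows. Because these words were picked in the same peaks, their share there is a description. In peaks that were not used to pick them, it was 13.5% of the 675 distal peaks within genes, 7.56% of promoter-flanking and 4.15% of promoter peaks, and 6.60% of the 3471 distal intergenic candidates below the list.

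The words sat beside the summit more than on it. In windows of 50 bp on either side of a centre, they were at 3.53% of distal intergenic summits, 9.41% at 100 bp to the left and 8.23% at 100 bp to the right. Beyond 300 bp on either side no window exceeded 2.35%. Distal peaks within genes had the same shape, with 5.33%, 7.85% and 7.11%, and promoter peaks stayed at or below 2.47%.

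**Figure D5:**
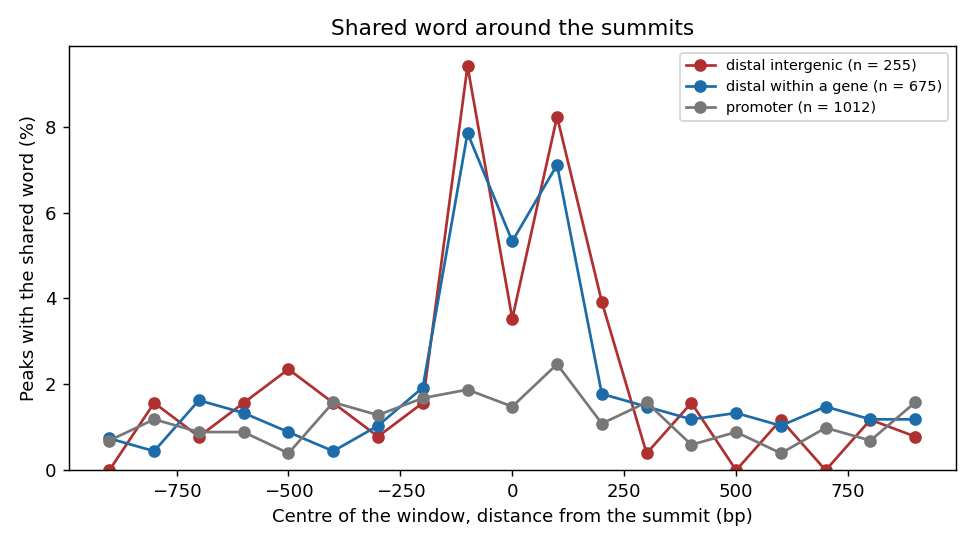
Share of peaks (%) with either shared word in windows of 50 bp on either side of a centre, by distance of the window centre from the summit in bp, for distal intergenic (red), distal within a gene (blue) and promoter peaks (grey). Both distal classes rise to between 7.11% and 9.41% at 100 bp on either side of the summit and the promoter class does not for these words. The shorter word ACACTG, not drawn, is at 11.4% of promoter peaks at the summit.

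The word CACTGA often ran on into A-rich sequence. Over the 55 places where it occurred at these summits, the base before it was A in 49.1% and G in 36.4%, and the fourth, the fifth and the sixth base after it were A in 72.7%, 70.9% and 76.4%. The signal of peaks with either word did not differ from that of the others beyond the spread between replicates. Their median log2 signal differed by 0.02, -0.06 and 0.09 in replicates 1, 2 and 3 (mean 0.02 ± 0.07, SD, n = 3, exact permutation p = 0.75). Of the 85 strongest distal intergenic peaks 11 held a word, of the next 85 it was 10, and of the weakest 85 it was 11. The median share of repeat-masked bases in the windows of the 32 was 18.4%, and 1 of them was masked over at least 50%.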

How the data were processed

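According to the deposited file listings, the authors called regions against a control, in each of 3 replicates and in their pool, as input to the irreproducible discovery rate (IDR), and derived from them an optimal list on dm6. Which aligner and which peak caller made them, and in what version, is not given in the sources used here. The signal per region, of unstated scale, and the −log10 q-value are the authors' deposited values, and no read counts were used, so depth is unknown. The optimal list held the 2537 pooled regions of highest signal of 23721, so peaks were called on pooled samples, and the replicate lists held 30000, 30000 and 24609 regions.

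Summits, 1-based, were placed on Ensembl release 115 gene models (BDGP 6.54) with Python 3.11.15, numpy 2.4.6, pandas 2.3.3 and scipy 1.17.1, and bases were read from RefSeq's copy of Release 6. The signal of a replicate at a peak is the highest among its regions that hold the pooled summit, so adjacent peaks can share a region, and peaks held by none are left out of that replicate's median. Replicates were compared with an exact two-sided sign-flip permutation test, and regions were not treated as replicates. Shares of bases were counted exactly over the 6 arms. The position rule and the difference in medians were tested on simulated data. The −log10 q-value entered no comparison. Intervals cover counting error only.

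The named genes are those nearest the 20 strongest and the 5 farthest peaks, those flanking gaps with at least 3 peaks, the 5 strongest peaks in a non-coding span, 2 peaks on each side of the 1.0 kb threshold, up to 4 per gene list, and eyg and toe. The most variable peak, the peaks without a region in a replicate (CG15452 among their genes) and the small RNA and Hsromega peaks were chosen after their values were seen. The printed sequences are those of the 6 strongest peaks and of 4 with a shared word. Peaks, 8 gene lists and 14 motifs were chosen with earlier results of these data known, and the words CACTGAGA and TACACTG after the sequences had been scanned. 2 list entries (Dl and HES1) matched no gene symbol in the annotation and were left out. 1 gap that the rule for named genes selects is not reported here.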

Additional observations from a re-analysis of the deposited data

How the results depend on the processing

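Of 42 alternatives, 32 kept their direction and their side of the threshold or stayed within the spread, 6 moved and 4 reversed. Placing a peak by its middle in place of its summit gave the same values throughout, so those entries among the 32 are not a separate check. Some of the 32 still changed in size, and with a TSS threshold of 2 kb the differences were -0.0570 in signal and -3.02 percentage points in recovery, against -0.0275 and -1.66. The number of peaks was 314 with a TSS threshold of 500 bp, 199 with 2 kb and 121 in the top 50% of the optimal list, a fall that this choice makes by construction. Within that top 50%, the difference in median log2 signal was 0.00906 (exact permutation p = 0.75) and that in top-call recovery 1.06 percentage points (p = 0.75), both reversed; the cause was not tested. Against distal peaks within genes these were 0.0466 (exact permutation p = 0.25) and 0.532 (p = 0.75), also reversed, since the comparison is another. Leaving out 1 replicate gave -0.0418 to -0.0114 for signal and -2.43 to -0.455 for recovery, where the exact test on 2 replicates cannot go below p = 0.5. Non-coding overlap was 17.5% outside genes of every biotype and 17.3% for spans alone. TAATTA within 50 bp was at 6.27%, in a shorter window. The GC difference was -4.40 with a window of 50 bp on either side, and masking over at least 50% of the window gave 1.96%. Gaps with several peaks numbered 36, and groups within 10 kb 38. No paired analysis was possible because all samples form a single group. Unknown read depth limits what can be said of weak peaks.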

Other observations

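Small RNA genes lay beside a few of the weaker peaks. A peak at chr3R:23859280-23859703 had its summit in the span of the U1 small nuclear RNA gene snRNA:U1:95Ca, part of the splicing machinery, with signals of 46.5, 44.2 and 50.3 in replicates 1, 2 and 3 (pool 149). A second peak 199 bp away (pool 109.2) shared its region in replicate 2. The peak 1003 bp from CG1142 (pool 134) lay in the span of snRNA:7SKa, the 7SK RNA that restrains transcription elongation. A peak with a pooled signal of 154 lay 109 bp from snRNA:U6:96Ac. Other peaks within 1.0 kb of a small RNA TSS were 2 at transfer RNA genes, 1 at a small nucleolar RNA gene and 1 at mir-275. In Hsromega, a long non-coding RNA gene induced by heat shock, there were 2, with pooled signals of 262 and 124. They are single peaks, given as values.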
